A study of Mus musculus with 9 samples.

Results

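A set of 8 genes that control the sterol regulatory element binding proteins (SREBPs) or the turnover of lipoprotein receptors were examined in aorta of wild-type and Apoe-knockout mice. They were Srebf1, Srebf2, Scap, Insig1, Insig2, Mbtps1, Mbtps2 and Mylip, chosen as a list by name, and 8 of 8 were found among the 33293 gene identifiers of the deposited table. RNA of whole aorta came from male mice aged 7 to 8 weeks on a normal chow diet, with 5 libraries of the C57BL/6J strain (WT) and 4 in which Apoe was knocked out (Apoe_KO). Apoe encodes apolipoprotein E, a ligand through which receptors clear plasma lipoproteins. The sources used here give neither the part of Apoe that the allele removes nor the strain background of the knockout. Separate animals behind the libraries are not stated either, so p-values measure only the spread between these samples.

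SREBPs are transcription factors made as membrane proteins of the endoplasmic reticulum. When membrane cholesterol is low, the escort protein SCAP carries them to the Golgi, where the site-1 and site-2 proteases release the part that enters the nucleus and switches on genes of sterol and fatty acid synthesis and of lipoprotein uptake. When sterols are plentiful, INSIG proteins hold SCAP in the endoplasmic reticulum. MYLIP, also called IDOL, is a ubiquitin ligase that sends lipoprotein receptors to lysosomes, and its gene is induced by liver X receptors.

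The bases upstream of 4 of these genes are shown because Insig1, Srebf1 and Srebf2 are themselves known targets of SREBPs, and Mylip and Srebf1 are known targets of liver X receptors. The sequences are from RefSeq (GRCm38.p6) and run 5′ to 3′ on the gene's strand up to the first annotated exon or the RefSeq start, at chr5:28071162-28071362 (plus strand), chr11:60210472-60210721 (minus strand, the most downstream of 3 Srebf1 starts), chr15:82147019-82147180 (plus strand) and chr13:45389492-45389741 (plus strand). Capitals mark matches on either strand to TCACCCCA, the core of the sterol regulatory element, to the E-box CACGTG, to the NF-Y box CCAAT and to the GC box GGGCGG.
Insig1: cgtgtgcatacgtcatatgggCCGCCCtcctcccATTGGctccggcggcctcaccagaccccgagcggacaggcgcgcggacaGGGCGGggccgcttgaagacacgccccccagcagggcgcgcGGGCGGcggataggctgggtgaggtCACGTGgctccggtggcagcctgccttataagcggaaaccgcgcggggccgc
Srebf1: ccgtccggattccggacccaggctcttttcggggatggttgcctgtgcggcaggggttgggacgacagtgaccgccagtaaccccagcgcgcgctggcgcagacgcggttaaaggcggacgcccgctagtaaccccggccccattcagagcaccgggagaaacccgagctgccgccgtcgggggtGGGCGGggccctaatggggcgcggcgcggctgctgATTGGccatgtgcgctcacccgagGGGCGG
Srebf2: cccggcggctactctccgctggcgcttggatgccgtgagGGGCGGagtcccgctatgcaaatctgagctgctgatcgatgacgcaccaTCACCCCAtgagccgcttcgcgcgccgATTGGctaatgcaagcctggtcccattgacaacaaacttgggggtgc
Mylip: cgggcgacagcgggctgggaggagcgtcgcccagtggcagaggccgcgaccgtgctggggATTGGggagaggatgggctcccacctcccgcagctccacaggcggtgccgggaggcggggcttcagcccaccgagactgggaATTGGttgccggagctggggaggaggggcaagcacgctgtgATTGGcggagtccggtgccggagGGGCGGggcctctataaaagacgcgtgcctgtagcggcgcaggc
The sterol element core lay in the Srebf2 sequence, beginning at base 89, and the E-box in the Insig1 sequence, beginning at base 150. Every one of the 4 sequences held a CCAAT box and a GC box. Of 32851 RefSeq promoters of 300 bases, 1.56% held TCACCCCA, 7.15% the E-box, 37.4% CCAAT and 35.7% GGGCGG. Over the 300-base windows of all 13 RefSeq starts of the 8 genes, TCACCCCA occurred at Srebf2 alone and the E-box at Insig1 and Scap. The windows of the 2 Scap starts overlap and hold the same E-box. The DR4 consensus, a spaced direct repeat bound by liver X receptors, occurred at none of the 13 starts and in 0.0152% of all promoters. A match that rare would be missing from almost any 13 starts, so its absence says nothing about these genes. These matches describe the exact letters only, so an element spelled with other letters goes unmarked, and no binding was measured.

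Values were FPKM (reads or fragments per kilobase of exon, scaled by the library's depth), which allows levels of different genes to be compared per length. The depths recovered from the values were 17002882 to 19765279 reads per library. The lowest number of reads behind any value of the 8 genes was 327, for Mbtps2, and the highest was 5075, for Insig1. Apoe itself, the targeted gene, was at 513 to 643 FPKM in the WT libraries and 5.64 to 6.55 FPKM in the Apoe_KO libraries. Apart from the genotype, WT 2 and Apoe_KO 4 stood apart. Their summed B and plasma cell markers were 482 and 415 FPKM, against 15.4 to 39.9 FPKM in the other 7 libraries. The 11 white adipocyte markers that were matched summed to 3926 to 6066 FPKM in WT and 2552 to 4776 FPKM in Apoe_KO, and 3 of them were called lower. In bulk tissue, fewer cells of a type and less RNA per cell cannot be told apart. The labelled tissue carried its smooth muscle markers, which summed to 4775 to 5676 FPKM in WT and 4894 to 6195 FPKM in Apoe_KO. Such sums are weighted to single genes. In WT, Acta2 averaged 4009 FPKM of a mean smooth muscle sum of 5168 FPKM, and Tagln 8.12 FPKM. Cfd averaged 2704 FPKM of a mean white adipocyte sum of 4719 FPKM in WT. By limma 1 of 8 markers was higher for smooth muscle and 1 of 8 for macrophages, and 1 of 8 was lower for endothelium. Over all tested genes 3.43% were called higher and 3.92% lower. At an unadjusted limma p below 0.05, 4 of 8 smooth muscle and 4 of 8 macrophage markers were higher and 0 lower. At that threshold 3 of 8 endothelial and 6 of 11 white adipocyte markers were lower and 0 higher. Of all tested genes 8.59% passed it as higher and 16% as lower. Of 25 tested markers of brown adipocytes, fibroblasts, hepatocytes, B and plasma cells, and T and NK cells 0 were called, with 2 at an unadjusted p below 0.05, both of fibroblasts. None of the markers of any list was at 0 in every library.

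Of the 8 genes, 2 fell in Apoe_KO, Insig1 and Srebf1, and 0 rose. The test was limma on log2(FPKM + 1) over 13383 genes, with a Benjamini-Hochberg adjusted p below 0.05 as the threshold. Srebf2 was also lower and Insig2 higher at an unadjusted p below 0.05, a threshold that 24.6% of all tested genes passed, 16% as lower and 8.59% as higher. Over all tested genes 7.35% were called at the adjusted threshold, 3.92% as lower (524) and 3.43% as higher (459). Median centring gave 269 lower and 630 higher, and it shifted the median log2 fold change of all genes from -0.069 to -0.0012. For the same 2 genes every Apoe_KO library lay below every WT library. Of all tested genes 12.4% had no overlap in either direction and 7.48% had none and were lower. Fold changes on this scale understate the change of genes of low level, such as Mbtps2.

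**Figure D1:**
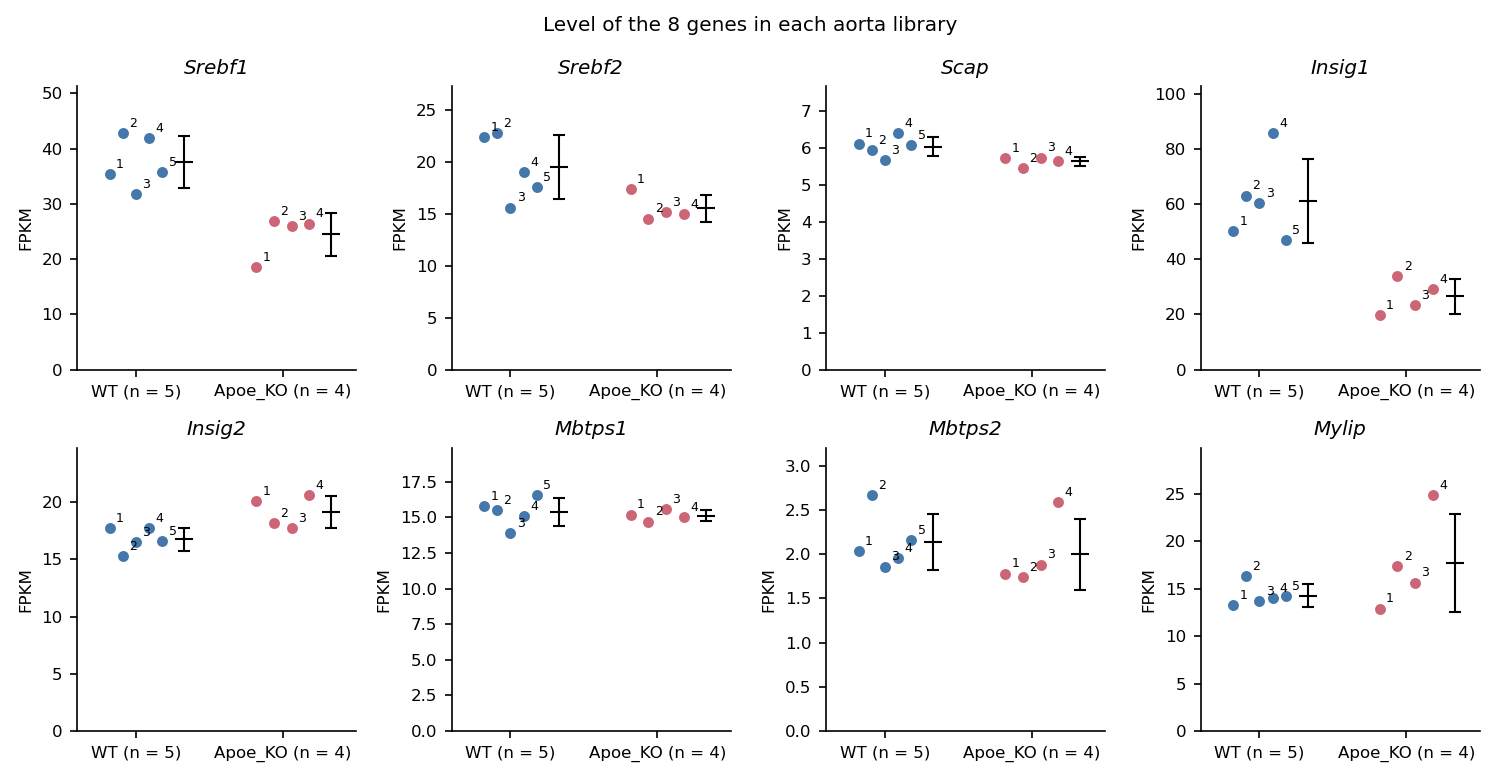
Level of each of the 8 genes in FPKM (vertical axes, from 0) in every library, numbered by replicate, with the mean and SD of 5 WT and 4 Apoe_KO libraries as black bars. Insig1 and Srebf1 are the genes whose Apoe_KO points all lie below the WT points, and Apoe_KO 4 is the highest point for Mylip at 24.9 FPKM.

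Insig1 encodes the sterol-regulated INSIG protein that retains SCAP, and its transcript is itself raised when SREBPs are active. The gene (ENSMUSG00000045294) lies on chromosome 5 at 28071363 to 28078662 of GRCm38, plus strand, with 3093 exonic bases. Its level in the WT libraries 1 to 5 was 50.3, 63.1, 60.5, 85.8 and 46.9 FPKM. In the Apoe_KO libraries 1 to 4 it was 19.7, 33.9, 23.5 and 29.1 FPKM. All Apoe_KO libraries were below the lowest WT library. The mean fell from 61.3 ± 15.3 (SD, n = 5) to 26.6 ± 6.25 FPKM (SD, n = 4), a ratio of WT to Apoe_KO of 2.31. The log2 fold change was -1.17 (SE 0.20, limma adjusted p = 0.00909), and 23 of the 13383 tested genes had a more negative one.

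The spread of Insig1 within a genotype was wide, with a coefficient of variation of 24.9% in WT and 23.5% in Apoe_KO, where counting alone gives at most 2.90%. The white adipocyte markers moved with it. The mean of these markers, in log2(FPKM + 1), was 7.24, 7.38, 7.57, 7.76 and 7.28 in WT 1 to 5 and 6.51, 7.33, 6.63 and 6.96 in Apoe_KO 1 to 4. WT 4 was highest for both the markers and Insig1, and within Apoe_KO the libraries had the same order for both. Apoe_KO 2 had a marker mean within the WT range and an Insig1 level, 33.9 FPKM, below the lowest WT level of 46.9 FPKM. With the marker mean as a covariate the log2 fold change of Insig1 was -0.56 (SE 0.14, limma adjusted p = 0.123) and it was no longer called. Over all 13383 tested genes that covariate left 24 called higher and 16 lower, against 459 and 524 without it. A call lost with it is therefore not particular to Insig1. Apoe_KO 2 is 1 library, and the part of adipocyte content in the Insig1 level was not tested.

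Insig2 encodes the second INSIG protein, whose gene is not induced by SREBPs in the same way. It lies on chromosome 1 at 121304353 to 121332589, minus strand, with 3473 exonic bases. Its level was 17.7, 15.3, 16.5, 17.7 and 16.6 FPKM in WT 1 to 5 and 20.1, 18.2, 17.7 and 20.7 FPKM in Apoe_KO 1 to 4. Apoe_KO 3 lay just under the highest WT library and the other 3 above it. The log2 fold change of 0.18 did not pass the test (95% interval 0.027 to 0.33, limma adjusted p = 0.14).

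The balance of the INSIG transcripts differed between genotypes. The ratio of Insig1 to Insig2 within a library, which does not move with the library's scaling, was 2.84, 4.12, 3.66, 4.83 and 2.82 in WT 1 to 5. It was 0.983, 1.87, 1.32 and 1.41 in Apoe_KO 1 to 4. Every Apoe_KO ratio was under the lowest WT ratio (two-sided exact permutation test over every split of the 9 libraries, p = 0.0159, the smallest it can give, and 0.0265 after Benjamini-Hochberg adjustment over 5 ratios). Insig1 made up 77.9% ± 3.99 (SD, n = 5) of the summed Insig1 and Insig2 FPKM in WT and 57.5% ± 6.39 (SD, n = 4) in Apoe_KO. The sum itself was 78.1 ± 15.5 FPKM in WT and 45.7 ± 6.12 FPKM in Apoe_KO (SD, the same libraries). The ratio of Insig1 to Insig2 shares its Insig1 values with the Insig1 call and is not a separate result. Its order over the Apoe_KO libraries was that of the white adipocyte markers, and WT 4 was highest for both. The part of adipocyte content in the ratio was not tested.

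**Figure D2:**
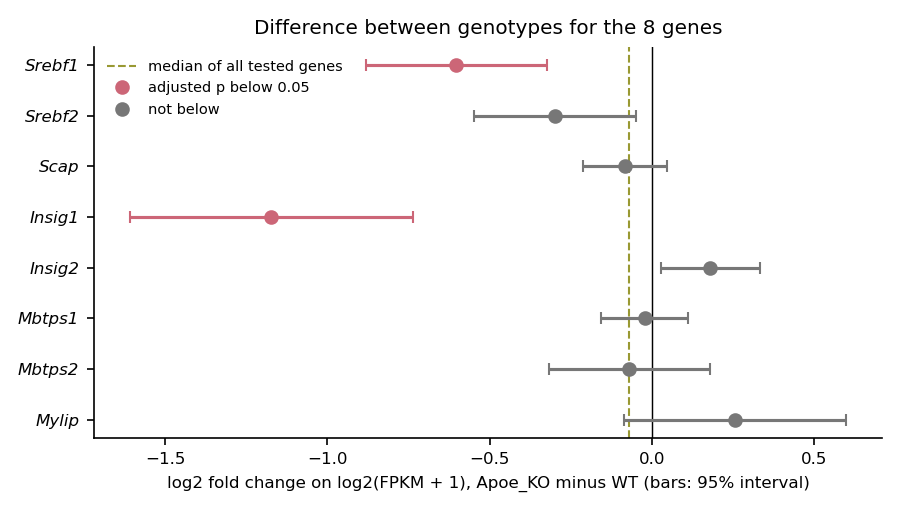
Log2 fold change of each gene, Apoe_KO minus WT on log2(FPKM + 1), as a point with its 95% interval from limma over 9 libraries; the dashed line is the median of all tested genes, -0.069. Insig1 and Srebf1 are the points with an adjusted p below 0.05, and the intervals of Srebf2 and Insig2 lie on opposite sides of 0 without passing the adjusted threshold.

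Srebf1 encodes SREBP-1, in the forms SREBP-1a and SREBP-1c from separate starts, which the gene-level values do not separate. SREBP-1c drives fatty acid synthesis. The gene (ENSMUSG00000020538) lies on chromosome 11 at 60199089 to 60222581, minus strand, with 5634 exonic bases. Its level was 35.3, 42.8, 31.7, 41.9 and 35.7 FPKM in WT 1 to 5. It was 18.6, 26.8, 25.9 and 26.4 FPKM in Apoe_KO 1 to 4. All Apoe_KO libraries were below all WT libraries, Apoe_KO 1 by the widest margin. The mean fell from 37.5 ± 4.70 (SD, n = 5) to 24.5 ± 3.92 FPKM (SD, n = 4), with a log2 fold change of -0.60 (SE 0.13, limma adjusted p = 0.0217).

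The Srebf1 call was close to the threshold. It was lost without WT 4 (limma adjusted p = 0.0561), without Apoe_KO 3 (0.0512) and without WT 2 and Apoe_KO 4 together (0.0653), while the log2 fold change ran from -0.66 to -0.48 over the libraries left out singly. With the white adipocyte mean as a covariate it was -0.38 (SE 0.17, adjusted p = 0.304), and Apoe_KO 1, the lowest library for Srebf1, was also the lowest for those markers. Over all tested genes that covariate left 24 called higher and 16 lower. Apoe_KO 2, with a marker mean inside the WT range, had 26.8 FPKM of Srebf1 against a WT minimum of 31.7 FPKM. That is 1 library, and the part of adipocyte content in the Srebf1 level was not tested. Rai1 overlaps Srebf1 on the opposite strand, at 4.27 FPKM in WT and 4.70 FPKM in Apoe_KO, and whether reads were counted by strand is not known here.

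Srebf2 encodes SREBP-2, the form that favours sterol synthesis and uptake. It lies on chromosome 15 at 82147181 to 82205379, plus strand, with 7184 exonic bases. Its level was 22.4, 22.7, 15.6, 19.0 and 17.5 FPKM in WT 1 to 5 and 17.4, 14.5, 15.2 and 15.0 FPKM in Apoe_KO 1 to 4. The Apoe_KO libraries lay at the low end of the WT range, and the lowest WT library, WT 3, fell among them. The log2 fold change of -0.30 did not pass the test (95% interval -0.55 to -0.049, limma adjusted p = 0.135). With the white adipocyte mean as a covariate it was -0.47 (SE 0.16, limma adjusted p = 0.21). The ratio of Srebf1 to Srebf2 was 1.95 ± 0.236 in WT (SD, n = 5) and 1.60 ± 0.357 in Apoe_KO (SD, n = 4), and the groups overlapped (two-sided exact permutation p = 0.143, adjusted 0.179). Without WT 1 that difference passed (exact permutation, adjusted p = 0.0357). The span of Srebf2 also holds Mir33, the gene of a microRNA, which is not analysed here.

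Scap encodes the escort protein that senses sterols. It lies on chromosome 9 at 110333288 to 110384950, plus strand, with 7443 exonic bases. Its values were among the steadiest of the 8 genes, at 6.12, 5.93, 5.67, 6.40 and 6.07 FPKM in WT 1 to 5 and 5.72, 5.46, 5.74 and 5.64 FPKM in Apoe_KO 1 to 4. The groups overlapped, and the log2 fold change was -0.083 (95% interval -0.21 to 0.046, limma adjusted p = 0.41). The ratio of Scap to the sum of Insig1 and Insig2 was 0.0793 ± 0.0135 in WT (SD, n = 5) and 0.125 ± 0.0191 in Apoe_KO (SD, n = 4), and all Apoe_KO ratios exceeded all WT ratios (p = 0.0159 by the same two-sided exact permutation, adjusted 0.0265). This ratio and that of Insig1 to Insig2 share the same values and are not separate results.

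**Figure D3:**
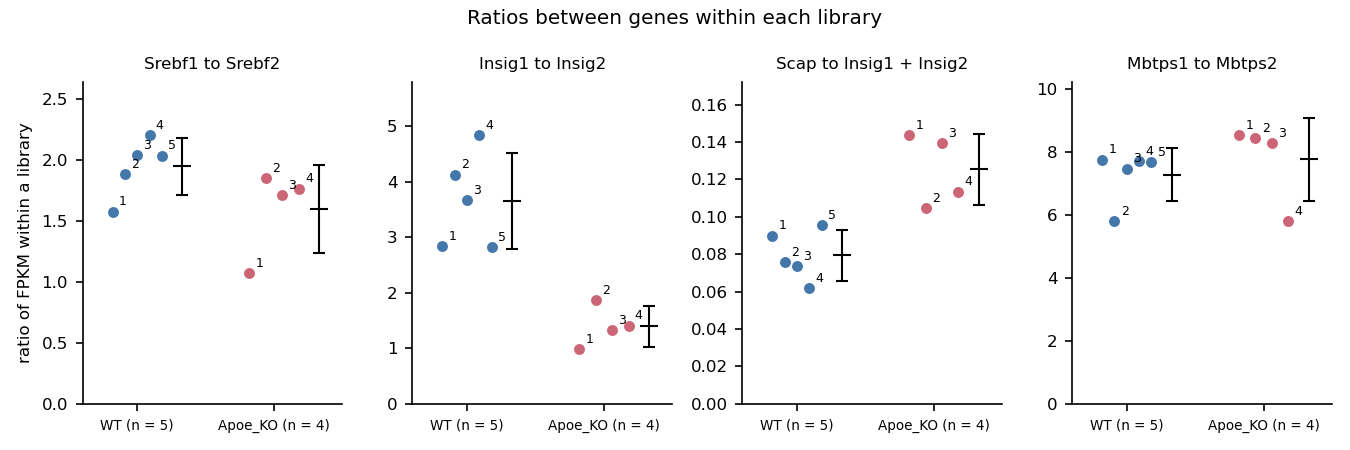
Ratios of FPKM between genes within each library (vertical axes, from 0), numbered by replicate, with the mean and SD of 5 WT and 4 Apoe_KO libraries as black bars. The groups do not overlap for Insig1 to Insig2 or for Scap to the INSIG sum, whereas for Mbtps1 to Mbtps2 WT 2 and Apoe_KO 4 are the low points at 5.80 and 5.79.

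Mbtps1 and Mbtps2 encode the site-1 and site-2 proteases, which cut SREBPs and the stress sensor ATF6 in the Golgi. Mbtps1 (chromosome 8, 119508156 to 119558735, minus strand, 10539 exonic bases) ranged from 13.9 to 16.6 FPKM in WT with a median of 15.5, and from 14.7 to 15.6 FPKM in Apoe_KO. Its log2 fold change was -0.021 (95% interval -0.15 to 0.11, limma adjusted p = 0.861), and the sign turned with median centring (0.047), quantile normalization (0.00069) and without WT 5 (0.0054). Mbtps2 (chromosome X, 157535371 to 157598715, minus strand, 10105 exonic bases) was at 2.04, 2.67, 1.86, 1.96 and 2.16 FPKM in WT 1 to 5 and 1.78, 1.74, 1.88 and 2.59 FPKM in Apoe_KO 1 to 4. The highest library of each genotype, WT 2 and Apoe_KO 4, was the one with high lymphocyte markers. Its log2 fold change was -0.069 (95% interval -0.32 to 0.18, limma adjusted p = 0.745), the same as the median of all tested genes to 2 digits, and became 0.052 with quantile normalization. The ratio of Mbtps1 to Mbtps2 was 7.29 ± 0.839 in WT (SD, n = 5) and 7.76 ± 1.32 in Apoe_KO (SD, n = 4; two-sided exact permutation p = 0.571, adjusted 0.571), and without Apoe_KO 4 the adjusted p was 0.0446.

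Mylip lies on chromosome 13 at 45389742 to 45412022, plus strand, with 3233 exonic bases. Its level was 13.24, 16.28, 13.64, 13.96 and 14.21 FPKM in WT 1 to 5 and 12.90, 17.40, 15.63 and 24.87 FPKM in Apoe_KO 1 to 4. The Apoe_KO libraries spanned the WT range, with Apoe_KO 1 below all WT libraries and Apoe_KO 4 far above them. The mean was 14.3 ± 1.18 (SD, n = 5) in WT and 17.7 ± 5.13 FPKM (SD, n = 4) in Apoe_KO, with a log2 fold change of 0.26 that did not pass the test (95% interval -0.084 to 0.60, limma adjusted p = 0.335). Without Apoe_KO 4 it was 0.089, without Apoe_KO 1 it was 0.39 and with the white adipocyte covariate 0.47. Mylip was not called in any of these fits. As for Mbtps2, WT 2 and Apoe_KO 4 had the highest Mylip level of their genotype. They also had the most B and plasma cell marker RNA, whose part in the Mylip level was not tested.

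**Figure D4:**
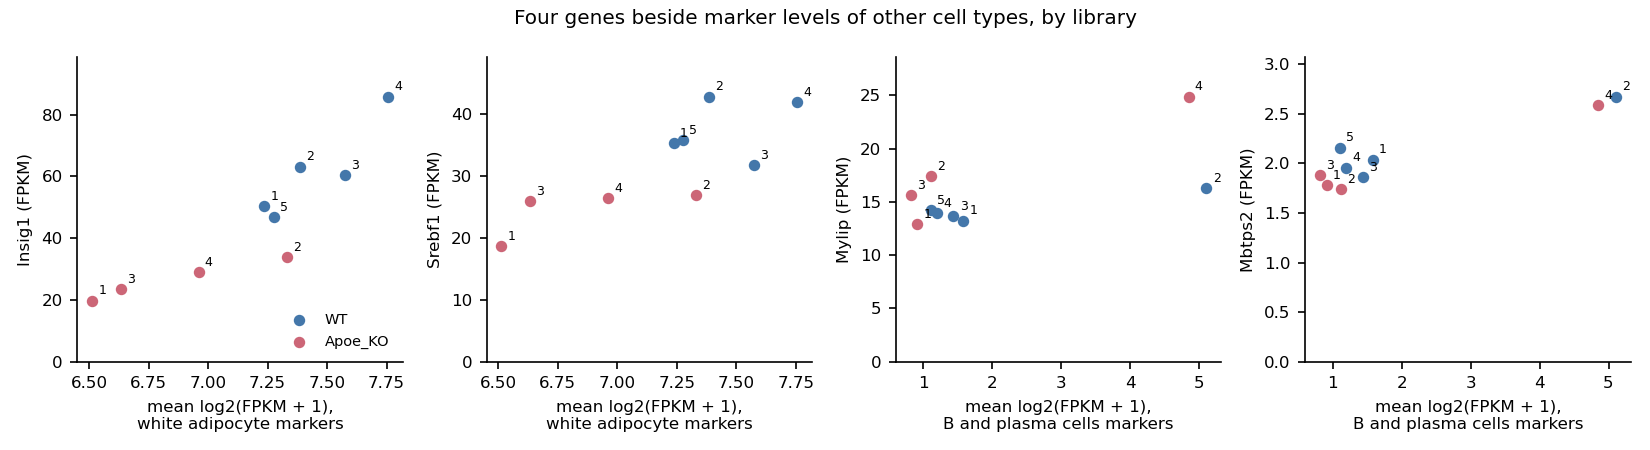
Insig1 and Srebf1 in FPKM (vertical axes, from 0) against the mean log2(FPKM + 1) of white adipocyte markers, and Mylip and Mbtps2 against that of B and plasma cell markers; each point is a library, numbered by replicate. Within each genotype Insig1 is highest in the library with the highest adipocyte mean, and WT 2 and Apoe_KO 4 stand alone at the right of both lymphocyte panels.

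Ordered by level per length in WT, the genes ran Insig1, Srebf1, Srebf2, Insig2, Mbtps1, Mylip, Scap and Mbtps2. The ranges of Insig1 and Srebf1, of Srebf1 and Srebf2, of Mylip and Scap, and of Scap and Mbtps2 did not overlap, whereas neighbours among Srebf2, Insig2, Mbtps1 and Mylip could not be separated beyond their spread. In Apoe_KO the order of means was Insig1, Srebf1, Insig2, Mylip, Srebf2, Mbtps1, Scap and Mbtps2, and Insig1 overlapped Srebf1 there. Insig1 had the most negative fold change of the 8 and the highest mean in both genotypes.

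The likeness of expression patterns was taken as Pearson's r of log2(FPKM + 1) over the 9 libraries after each genotype's mean was taken off, a description over libraries that share their depth and tissue makeup. The most alike genes were picked from all tested genes over few libraries, so a high r can come from the search alone. No baseline for r was taken. The 3 genes most like Insig1 were Cxcl9 (r = 0.97), Gstz1 (0.95) and Glb1l2 (0.95), of which Gstz1 and Glb1l2 were also called lower (log2 fold changes -0.64 and -0.74). For Srebf1 they were Rab13 (0.97), Cd209d (0.94) and Hpgd (0.93), and for Srebf2 Ankrd13d (0.98), Dgcr8 (0.96) and Stk25 (0.96), and these 6 were not called by limma. For Mylip they were the ribosomal protein genes Rps21 (0.99) and Rpl22 (0.98) and Dazap2 (0.98), also not called. Mylip was at 24.87 FPKM in Apoe_KO 4 against 12.90 to 17.40 FPKM in the other Apoe_KO libraries. These r were not taken without Apoe_KO 4. Among the 8 genes themselves the closest pair was Mbtps2 and Mylip (r = 0.81), followed by Srebf1 and Insig1 (0.69), and Srebf1 and Srebf2 were at 0.079. Mbtps2 and Mylip were both highest of their genotype in WT 2 and Apoe_KO 4, and r was not taken without those libraries.

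Of 25 listed genes of other proteins that hold, move or degrade SREBP, SCAP or INSIG 24 were tested, and 1 was higher and 1 lower, a share close to the 7.35% of all tested genes. Their median log2 fold change was 0.053 against -0.069 over all tested genes. The one that rose was Ube2g2, a ubiquitin-conjugating enzyme of endoplasmic reticulum degradation, from 15.9 ± 0.801 (SD, n = 5) to 22.8 ± 1.92 FPKM (SD, n = 4; log2 fold change 0.49, limma adjusted p = 0.00348), a call lost with the adipocyte covariate (0.56, adjusted p = 0.0664). That covariate left 24 of all tested genes called higher and 16 lower. The partner called lower was Erlin2, of a membrane complex that binds SREBP, SCAP and INSIG, which was at -0.21 (adjusted p = 0.0464) and lost its call whichever library was left out.

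**Figure D5:**
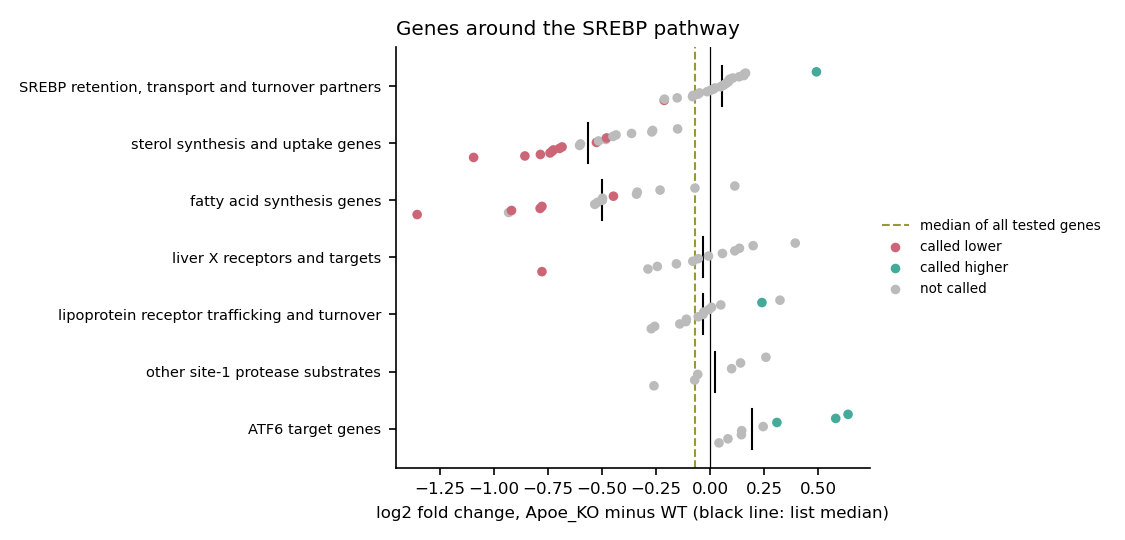
Log2 fold change (horizontal axis, Apoe_KO minus WT) of every tested gene in 7 lists around the SREBP pathway, coloured by limma call, with the list median as a black line and the median of all tested genes dashed. The sterol list lies wholly below 0 with a median of -0.56, and the partner list is centred near 0.05.

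Of the known targets of SREBP-2 in sterol synthesis and uptake, a list set when its pattern in these data was already known, 21 were listed and 20 tested. By limma 10 were lower and 0 higher, against 3.92% and 3.43% of all tested genes. At an unadjusted p below 0.05, 18 were lower and 0 higher (16% and 8.59% of all tested genes), and the median was -0.56. The lower genes included Idi1, an isomerase of the isoprenoid steps (8.41 ± 1.69 to 3.36 ± 0.428 FPKM; SD, n = 5 and n = 4), Sc5d, a late desaturase of cholesterol synthesis (-0.86), Acat2, the acetoacetyl-CoA thiolase of the cytosol (-0.69), and Hmgcs1, the HMG-CoA synthase gene (-0.70). Without WT 2 and Apoe_KO 4 the count was 4, without Apoe_KO 3 it was 5, and with the adipocyte covariate 0, where Idi1 kept a log2 fold change of -1.02 (SE 0.21) and Sc5d -0.82 (SE 0.18). With that covariate 16 of all tested genes were called lower and 24 higher.

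Of 15 tested known targets of SREBP-1 in fatty acid synthesis 5 were lower and 0 higher by limma, against 3.92% and 3.43% of all tested genes. At an unadjusted p below 0.05, 11 were lower and 0 higher (16% and 8.59% of all tested genes), with a median of -0.50. Pnpla3, a lipid droplet lipase (-1.36), Thrsp, a lipogenic nuclear protein (-0.79), the desaturase gene Scd2 (-0.78) and Fads1, of polyunsaturated fatty acid synthesis (-0.45), were among the 5 called lower. Pnpla3 shares its span with 3 other annotated genes. The count was 0 without Apoe_KO 3, without WT 2 and Apoe_KO 4 together, and with the adipocyte covariate, and 1 without WT 4, Apoe_KO 1 or Apoe_KO 4, 2 without WT 2 and 3 without WT 1. With the covariate 16 of all tested genes were called lower and 24 higher.

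Liver X receptors, which induce both Mylip and Srebf1, showed no change in their own transcripts that passed the test. Nr1h3, for the receptor LXR alpha, averaged 15.4 ± 2.03 FPKM over WT (SD, n = 5) and 13.8 ± 2.66 FPKM in Apoe_KO (SD, n = 4; log2 fold change -0.16, limma adjusted p = 0.503). Nr1h2, for LXR beta, was at 17.4 ± 1.12 and 18.1 ± 1.21 FPKM (0.056, limma adjusted p = 0.65; SD, n = 5 and n = 4). Of the 12 receptors, partners and targets listed, 1 was lower (Scd2) and 0 higher by limma, against 3.92% and 3.43% of all tested genes. At an unadjusted p below 0.05, 2 were lower and 0 higher, a threshold that 24.6% of all tested genes passed. The list median was -0.032.

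Among 13 tested genes of lipoprotein receptor trafficking and turnover 1 was higher and 0 lower by limma, against 3.43% and 3.92% of all tested genes. At an unadjusted p below 0.05, 2 were higher and 1 lower, near the 24.6% of all tested genes, and the list median was -0.034. The gene called higher was Ube2d3, a ubiquitin-conjugating enzyme, at 0.24 (limma adjusted p = 0.0495). Its call was lost in 8 of the 9 fits that left out a library.

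Site-1 and site-2 proteases also release ATF6 and its relatives. Of 8 listed substrates 6 were tested and 0 were called by limma, against 7.35% of all tested genes. At an unadjusted p below 0.05, 2 were higher and 1 lower, against 24.6% of all tested genes, and the list median was 0.020. Of 8 target genes of ATF6, a list in which earlier results were known, 3 were higher and 0 lower by limma, against 3.43% and 3.92% of all tested genes. At an unadjusted p below 0.05, 4 were higher and 0 lower (8.59% and 16% of all tested genes), with a median of 0.19. The 3 called were Herpud1, of endoplasmic reticulum degradation (0.64), the chaperone gene Hspa5 (0.58) and the co-chaperone gene Dnajc3 (0.31). Dnajc3 lost its call without WT 1, WT 4, WT 5, Apoe_KO 1, Apoe_KO 3 or Apoe_KO 4. With the adipocyte covariate none of the 3 was called by limma, with adjusted p = 0.0567 for Herpud1 (0.60), 0.162 for Hspa5 (0.51) and 0.303 for Dnajc3 (0.22). That covariate left 24 of all tested genes called higher and 16 lower.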

How the data were processed

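Aorta RNA of 5 WT and 4 Apoe_KO libraries was analysed. Per the labels' protocols, ribosomal RNA was removed before library preparation, whereas the labels' molecule field names polyA RNA. Per the submitters' processing notes the build was GRCm38 and limma was used. In the sources used here no aligner, counter, gene models or use of strand is given.

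The deposited values carry no unit and were taken to be FPKM made by the authors, because each value times the exon length in GENCODE M21 came out as whole reads once a depth was set for each library. To within 0.1 read, 97.6% to 97.9% of values of up to 50 reads did so. Those depths, 17002882 to 19765279 reads, set the precision.

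The 13383 genes that reached 1 FPKM in 4 or more libraries were fitted, after a pseudocount of 1 and log2, by limma (version 3.58.1, R 4.3.3; trend and robust), genotype as the only term. The design had allowed for counts or FPKM, and the unit decided. P-values were adjusted over all tested genes by Benjamini and Hochberg at 0.05. The steps were tested on simulated data. Ratios within libraries were compared by exact permutation.

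The members, lists, rules and tests were chosen with earlier results of these data known. The genes named are the 8, up to 4 called genes per list by smallest p, with Nr1h3 and Nr1h2, and the 3 most similar genes to Srebf1, Srebf2, Insig1 and Mylip. A few planned list genes and 1 of 5 ratios are not reported here, and the lists were counted without those genes. The marker Tusc5 was not matched and is not analysed here. Alternatives were the replicate block, leaving out each library or WT 2 and Apoe_KO 4 together, a pseudocount of 0.1, no filter or 10 FPKM, median centring, quantile normalization, library weights, and the mean of the white adipocyte markers as a covariate.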

Additional observations from a re-analysis of the deposited data

Results flagged for a closer look

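In 4 of the 56 groups of 4 or 5 libraries examined, for the named genes and the ratios, a single library lay far from the rest of its group, and chance gives this in about 1 of 20 groups. Srebf1 was at 18.6 FPKM in Apoe_KO 1, against 25.9 to 26.8 FPKM in the other 3 Apoe_KO libraries. Mbtps2 was at 2.59 FPKM in Apoe_KO 4, against 1.74 to 1.88 FPKM in the others. The ratio of Mbtps1 to Mbtps2 was 5.79 in Apoe_KO 4, against 8.29 to 8.53 in the others, and 5.80 in WT 2, against 7.47 to 7.76 in the other 4 WT libraries. Apart from Srebf1 these cases share Mbtps2 values, and the ratios reuse values of the genes. The groups are therefore not independent, and 4 of 56 cannot be weighed against 1 of 20.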

How the results depend on the processing

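Of the 18 alternatives to the fit, Insig1 kept its call in 17 and Srebf1 in 12. A fit on recovered reads is not given, since the deposited values are FPKM and not counts. Insig1 was at -0.56 with the adipocyte covariate, where it was not called. Srebf1 was not called with the replicate block (-0.62, adjusted p = 0.0745), without WT 2 and Apoe_KO 4 (-0.59), with no filter (-0.60) or with the adipocyte covariate (-0.38), and ran from -0.66 to -0.48 with a library left out. So 2 of the 8 genes were called lower, but 1 with the block, 1 without those 2 libraries, 1 with no filter, 0 with the covariate, and 1 to 2 with a library left out. The replicate block, in which WT 5 has no partner, gave 121 genes higher and 62 lower against 459 and 524, and of the named list genes Ube2g2 (limma adjusted p = 0.0531) and Hspa5 (0.111) were among those not called with it. Same-numbered libraries deviated together with r = 0.26, -0.27, -0.13 and -0.22, against 0.61 for WT 2 with Apoe_KO 4. These deviations also carry tissue makeup, so they cannot decide whether the numbers pair the samples. The cause of these changes was not tested.

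The counts higher and lower were 203 and 174 without WT 2 and Apoe_KO 4, 247 and 198 with no filter, 702 and 1055 with library weights, and 24 and 16 with the covariate. The number lower was 220 with the 10 FPKM filter. Median centring gave 630 higher and 269 lower and quantile normalization 485 and 240. Leaving out a library gave 205 to 576 higher and 178 to 683 lower. Mbtps1 turned sign with the block (0.0054), median centring (0.047), quantile normalization (0.00069) and without WT 5 (0.0054), and ran from -0.055 to 0.0054 with a library left out. Mbtps2 was at 0.052 with quantile normalization, and Nr1h3 at 0.25 with the covariate.

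The log2 ratio differences without WT 2 and Apoe_KO 4 were -1.36 for Insig1 to Insig2 and 0.69 for Scap to the INSIG sum, where the smallest exact permutation p is 0.0571. With a library left out they ran from -1.55 to -1.24 and from 0.58 to 0.75, and both missed the threshold without Apoe_KO 1, 2 or 3 (adjusted p = 0.0595), where the smallest unadjusted exact permutation p is 0.0357. Srebf1 to Srebf2 ran from -0.39 to -0.13 and Mbtps1 to Mbtps2 from 0.0022 to 0.22. Depth did not limit the 8 genes, whose counting error was at most 5.53%, below their spread between libraries except for Scap in Apoe_KO.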
